A study of Mus musculus with 7 samples.

Results

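In retinal pigment epithelium (RPE) of aged mice, 65 of the 52740 deposited gene rows were at least 3 times as high in every library of 1 genotype as in any library of the other. Of these, 48 were higher in LC3b-/- mice and are called on, and 17 were lower and are called off. The words name the side of the rule and not absence, since only 8 of the 48 on genes, and none of the 17 off genes, had 3 counts or fewer in every library of the low genotype. The genes were chosen by their level in CPM, which is a count divided by the total of its library and multiplied by 1000000. A gene was taken when its lowest library in 1 genotype reached 1 CPM and was at least 3 times its highest library in the other genotype. Among rows with at least 1 CPM in every LC3b-/- library, 0.352% met the rule as on, and among rows with at least 1 CPM in every WT library 0.131% met it as off. The targeted gene Map1lc3b and symbols that begin with Krt or Slc were left out by the same rule. Those omitted were Krt4, Krt6b, Krt13, Krt15, Slc28a3 and Slc44a4 on the on side, with Slco1b2 and Map1lc3b on the off side. Because the levels selected the genes, the differences between genotypes are given as a description, and edgeR calls of the same genes add no independent support.

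RPE was released enzymatically from eyes of 24 month old mice, and polyadenylated RNA of each mouse gave 1 library. The WT group held 4 C57BL6/J mice, 3 females and 1 male, and the LC3b-/- group held 3 mice of the line B6;129P2-Map1Lc3btm1Mrab/J, 2 females and 1 male. The labels name no treatment. The line is named for a mixed B6 and 129P2 background, so the loss of LC3b and the strain background cannot be told apart in any comparison here, and a group number in the mouse names that never occurred in both genotypes cannot be told apart from either. Total counts per library were 24495952 to 35616134, and 3 counts corresponded to 0.0842 to 0.122 CPM. Map1lc3b, which encodes the autophagosome protein LC3b, had 4444, 2832, 2778 and 2865 counts in WT against 168, 332 and 229 counts in LC3b-/-, in the order F1, F2, F3 and M1 for WT and F1, F3 and M for LC3b-/-, which is kept for all library values.

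Markers of other cell types differed widely between libraries. The summed level of 10 RPE markers was 29587 to 45967 CPM in WT and 12396, 17898 and 28080 CPM in LC3b-/- F1, F3 and M. All LC3b-/- sums were thus below all WT sums. Singly, only 3 of the 10 markers were lower without overlap, and none was called. The sum rests mostly on Ttr and Rgr, with WT means of 13395 and 11423 CPM. Best1 was slightly higher on average, at 1.25 CPM in WT and 1.46 in LC3b-/-. The summed level of the markers of ocular surface and stratified epithelium was 284.4 to 4142 CPM in WT and 33284, 10505 and 4817 CPM in LC3b-/- F1, F3 and M. Of the 36 epithelial markers with a deposited row, 24 were higher in every LC3b-/- library than in every WT library. Of the 36, 32 were tested by edgeR, and Sprr2a1, among the 24, was not. Beside this, 22.1% of all tested genes did not overlap in either direction. Hal, Krt4, Krt6b, Krt13 and Krt15, also among the 24, met the levels of the rule and so could not overlap. Sprr1b was at 0 in every library. Endothelial markers were also higher without overlap, with sums of 158.0 to 483.9 CPM in WT and 556.4, 763.6 and 623.4 CPM in LC3b-/-, and no overlap in 3 of the 5 markers. The sum of lens markers was lower without overlap, at 10.6 to 12.9 CPM in WT and 4.57, 8 and 9.8 CPM in LC3b-/-. However, 0 of the 7 lens markers was lower without overlap by itself. Lim2 alone, which overlapped, was at 10.1 ± 1.62 CPM in WT and 6.04 ± 2.7 in LC3b-/-. The sums of the other 9 of the 13 marker lists overlapped. Among these, photoreceptor markers summed to between 21.4 and 18144 CPM in WT and between 36.2 and 7084 CPM in LC3b-/-. In whole samples such as these, fewer cells of a type and less RNA per cell cannot be told apart.

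Inbred mouse strains differ in gene copies, pseudogenes and transcribed sequence, and a line made by gene targeting keeps sequence of the stem cell strain around the targeted gene. A processed pseudogene is a copy of a spliced mRNA that was inserted elsewhere in the genome, and it often differs from its parent gene at only a few bases. Reads from such a pair are assigned to 1 member or the other by those few bases, and the reference sequence used for assignment was that of C57BL/6J.

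**Figure D1:**
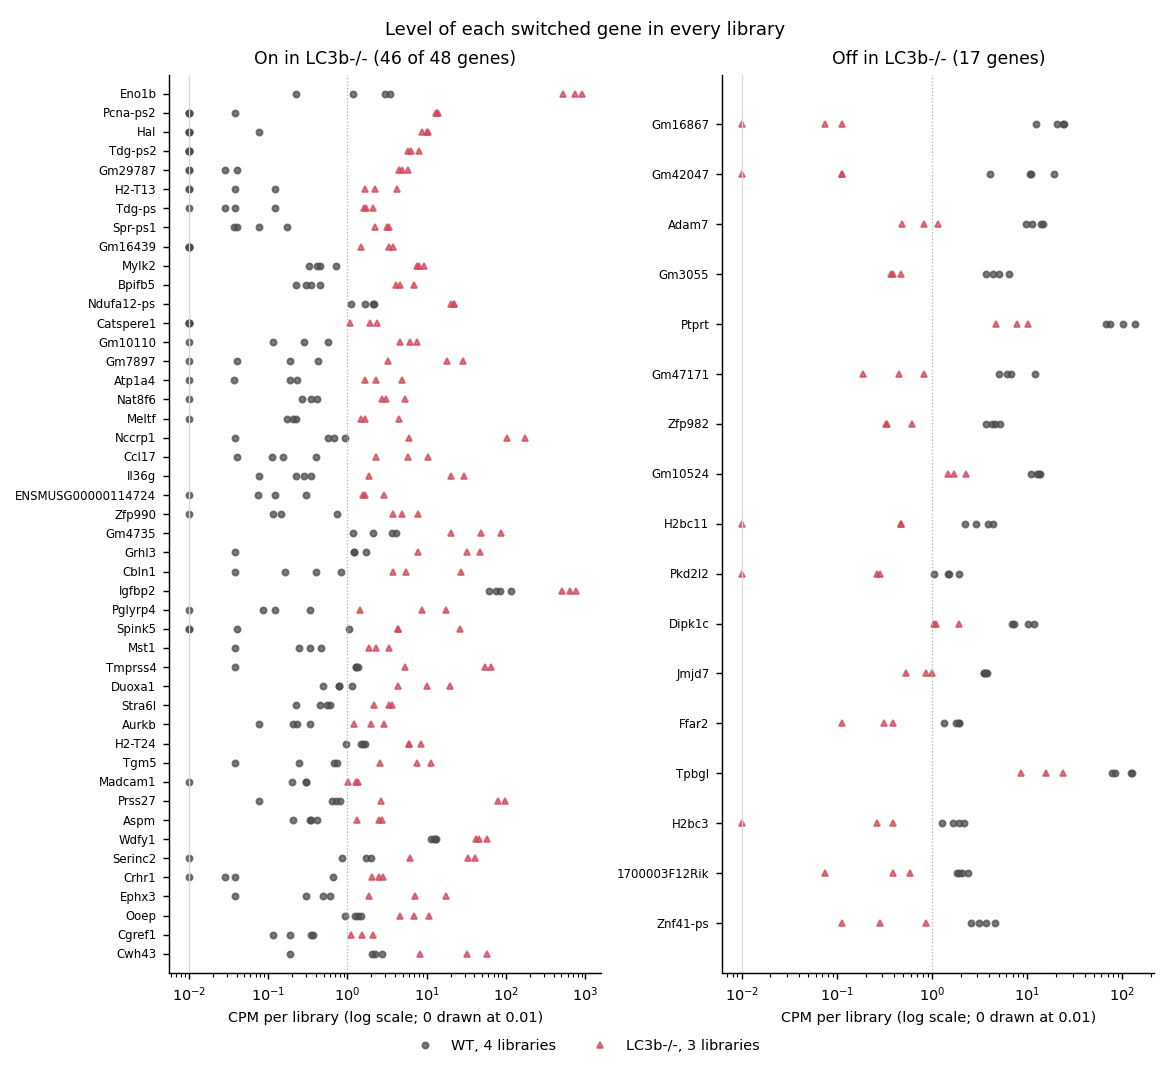
Level of 63 of the 65 switched genes in every library, in CPM on a log scale with 0 drawn at 0.01; circles are the 4 WT libraries and triangles the 3 LC3b-/- libraries, and genes are ordered by the ratio of the nearest libraries. The 46 genes shown on in LC3b-/- reached 901.7 CPM (Eno1b), and the 17 genes off in LC3b-/- reached 134.8 CPM in WT (Ptprt).

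By annotation, 50 of the 65 genes were protein coding (76.9%), 11 were pseudogenes (16.9%), 2 were TEC genes (3.08%, a GENCODE class for transcripts that still await experiment) and 1 was a long noncoding RNA (1.54%). Among the 14226 rows with at least 1 CPM in every library of a genotype, protein-coding genes made up 94.2%, pseudogenes 1.37%, TEC genes 0.464% and long noncoding RNAs 3.74%. Pseudogenes were therefore a larger share of the switched genes than of expressed rows. Of the 11 pseudogenes, 10 were on in LC3b-/- and 1, Znf41-ps, was off. The on side held 37 protein-coding genes and 1 identifier, ENSMUSG00000114724, that had no match in the annotation used here. The off side held 13 protein-coding genes, the long noncoding RNA Gm42047 and the TEC genes Gm47171 and Gm10524.

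**Figure D2:**
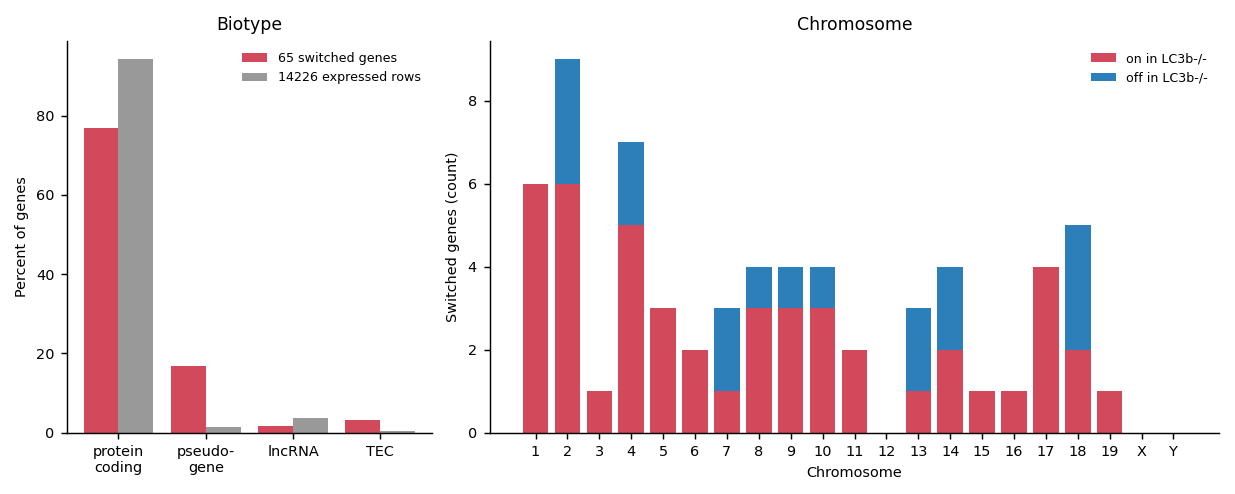
Left, percent of genes in each biotype among the 65 switched genes and among 14226 expressed rows. Right, number of switched genes on each chromosome, with genes on and off in LC3b-/- stacked; pseudogenes were 16.9% of switched genes and 1.37% of expressed rows, and chromosome 2 held 9 switched genes.

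All 65 genes passed the filter on low counts for edgeR's quasi-likelihood test over 16990 genes. A gene was called when its adjusted p stayed below 0.05 and its fold change reached 1.5. Called genes numbered 14 of the 48 on genes, where 0.124% of all tested genes were called higher, and 10 of the 17 off genes, where 0.112% were called lower. As the test used the same contrast as the rule, nothing is read from these counts. The called on genes included Eno1b, Pcna-ps2, Hal, Tdg-ps2, Gm29787, Spr-ps1, Mylk2, Bpifb5, Ndufa12-ps, Gm4735, Igfbp2, H2-T24 and Wdfy1. The called off genes were Gm16867, Gm42047, Adam7, Gm3055, Ptprt, Zfp982, Gm10524, Dipk1c, Jmjd7 and Tpbgl.

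Of the 6 processed pseudogenes, 5 had a highest LC3b-/- library at most 1.37 times the lowest. Pcna-ps2 is a copy of Pcna, the sliding clamp of DNA replication, and lies at chr19:9260744-9261524 (GRCm39, plus strand). It had 1 count in WT F3, none in the other 3 WT libraries, and 14, 13.2 and 13.6 CPM in LC3b-/- F1, F3 and M. Tdg-ps2, a copy of the thymine DNA glycosylase gene Tdg, lies at chr10:41930109-41931302 (minus strand). It had no count in WT and 7.94, 6.43 and 5.79 CPM in LC3b-/- F1, F3 and M, which was at least 54.9-fold higher when 3 counts per WT library are allowed. A second copy, Tdg-ps at chr15:82400512-82403479 (plus strand), had 0 to 0.122 CPM in WT and 2.13, 1.74 and 1.62 CPM in LC3b-/-. Ndufa12-ps, a copy of the gene for a complex I subunit of mitochondria, lies at chr5:130217236-130217637 (plus strand). It differed from the others in having a steady level in WT, 2.18, 1.67, 2.09 and 1.12 CPM, against 21.9, 20 and 21.8 CPM in LC3b-/-. Gm29787, a copy of the cortactin gene Cttn at chr13:51359299-51360147 (minus strand), had at most 1 count per WT library and 5.77, 4.41 and 4.84 CPM in LC3b-/-. Gm16439, a copy of the mitophagy receptor gene Bnip3 at chr14:44834122-44834685 (plus strand), had no count in WT and 1.5, 3.71 and 3.39 CPM in LC3b-/-, at least 23.4-fold higher. All 3 LC3b-/- libraries were above all 4 WT libraries for each of these copies, as the rule requires.

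The sequences of these copies show how few bases separate them from their parents. Each pair of lines gives 100 bases, the length of 1 read, from the GENCODE vM39 transcripts of GRCm39 and read 5′ to 3′. The parent transcript with the longest alignment was used. Among stretches without a gap inside its coding part, the stretch with the most substitutions is given. Stretches with gaps were not compared. Capitals mark the bases that differ between the 2 lines.
Pcna-ps2: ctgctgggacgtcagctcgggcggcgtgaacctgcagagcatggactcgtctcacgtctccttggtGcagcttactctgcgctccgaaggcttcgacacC
Pcna: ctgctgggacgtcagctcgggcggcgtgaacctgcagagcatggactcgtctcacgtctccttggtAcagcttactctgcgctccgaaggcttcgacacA
Tdg-ps2: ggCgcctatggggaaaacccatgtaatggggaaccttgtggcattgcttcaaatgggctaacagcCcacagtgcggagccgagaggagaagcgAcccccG
Tdg: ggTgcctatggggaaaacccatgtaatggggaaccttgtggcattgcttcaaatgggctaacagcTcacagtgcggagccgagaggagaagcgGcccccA
Gm29787: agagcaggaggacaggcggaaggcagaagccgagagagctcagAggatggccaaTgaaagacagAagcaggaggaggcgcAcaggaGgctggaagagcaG
Cttn: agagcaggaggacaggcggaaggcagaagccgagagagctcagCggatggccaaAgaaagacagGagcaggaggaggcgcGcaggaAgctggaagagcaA
Gm16439: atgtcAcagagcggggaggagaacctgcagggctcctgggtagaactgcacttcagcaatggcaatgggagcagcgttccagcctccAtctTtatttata
Bnip3: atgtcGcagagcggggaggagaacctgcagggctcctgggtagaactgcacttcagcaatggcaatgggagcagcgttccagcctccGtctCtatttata
Ndufa12-ps: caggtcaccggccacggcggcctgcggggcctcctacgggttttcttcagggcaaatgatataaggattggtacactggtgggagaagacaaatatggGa
Ndufa12: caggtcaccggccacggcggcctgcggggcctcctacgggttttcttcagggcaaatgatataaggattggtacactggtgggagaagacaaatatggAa

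These stretches lie at chr19:9260820-9260919 for Pcna-ps2, chr10:41930213-41930312 for Tdg-ps2, chr13:51359757-51359856 for Gm29787, chr14:44834122-44834221 for Gm16439 and chr5:130217236-130217335 for Ndufa12-ps. They differed from the parent at 2, 4, 6, 3 and 1 bases of 100. Over the whole alignment, Pcna-ps2 differed from Pcna by 6 substitutions in 781 columns with no gap. Tdg-ps2 differed from Tdg by 9 substitutions and 3 gap columns in 1197, and Gm29787 from Cttn by 26 substitutions and 15 gap columns in 851. Ndufa12-ps differed from Ndufa12 by 2 substitutions and 15 gap columns in 417. Gm16439 differed by 6 substitutions and 44 gap columns in 608 from the Bnip3 transcript with the longest alignment. The gaps depend on this choice of transcript, as the search for copies aligned Gm16439 with Bnip3 over 564 bases at 98.9% identity. Of all 100-base windows of the pseudogene, 37% were also found in another gene for Pcna-ps2, 69.7% for Tdg-ps2, 59.1% for Ndufa12-ps, 34.6% for Gm16439 and 0.533% for Gm29787. A read from a shared window cannot be assigned to either gene by its bases.

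The parents of Pcna-ps2, Ndufa12-ps and the Tdg copies had lower mean levels in LC3b-/-, and none of the 3 was called. Pcna was at 72.8 ± 4.35 CPM in WT (SD, n = 4) and 56.7 ± 1.44 in LC3b-/- (SD, n = 3) without overlap, and was not called by edgeR (log2 fold change -0.40, SE 0.11, adjusted p = 0.105). Ndufa12 was at 85.4 ± 9.49 CPM in WT and 43.7 ± 3.03 in LC3b-/- (log2 fold change -0.99, SE 0.15, edgeR adjusted p = 0.058), and Tdg at 16.8 ± 1.04 and 11.8 ± 1.68 CPM (log2 fold change -0.53, SE 0.18, edgeR adjusted p = 0.145). Bnip3, at 34.2 ± 6.27 and 25.3 ± 6.82 CPM, overlapped between genotypes. Cttn also overlapped and was on average higher in LC3b-/-, at 122.2 ± 12.8 and 144.8 ± 16.5 CPM.

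Summed with their long copies, none of these pseudogenes met the rule. The copies held most of the counts of each sum, so a change of the pseudogene alone could not reach the ratio. This outcome therefore does not show whether the pseudogene itself switched. Pcna and Pcna-ps2 together had 72.8 ± 4.34 CPM in WT and 70.3 ± 1.06 in LC3b-/-. The pseudogene took 20.1%, 18.5% and 19.5% of the pair's counts in LC3b-/- F1, F3 and M and at most 0.0552% in any WT library. Ndufa12-ps took 32.6%, 33.2% and 32.3% in LC3b-/- and 1.14% to 2.85% in WT, and the pair summed to 87.1 ± 9.1 CPM in WT and 64.9 ± 4.1 in LC3b-/-. Tdg-ps2 took 36.7%, 37.9% and 34.1% of the counts it shared with Tdg, and Gm29787 took 3.41%, 3.05% and 3.56% of those shared with Cttn. These shares were nearly the same in the 3 LC3b-/- mice. Gm16439 varied more, with 7.65%, 10.5% and 11.5% of the counts shared with Bnip3. With its 3 long copies, Tdg-ps2 summed to 16.9 ± 1.05 CPM in WT and 20.4 ± 2.96 in LC3b-/-, without overlap. Tdg-ps with its 2 long copies summed to 18.5 ± 0.438 and 15.4 ± 1.95 CPM, also without overlap. The sums overlapped for Gm29787 with Cttn, at 122.2 ± 12.8 and 149.8 ± 17.1 CPM. They also overlapped for Gm16439 with its 3 long copies, at 34.3 ± 6.22 and 28.2 ± 7.96 CPM.

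The most counted on gene was Eno1b, a relative of the glycolytic enolase gene Eno1. Eno1b had 3.48, 2.98, 1.18 and 0.225 CPM in WT and 525.3, 901.7 and 741.6 CPM in LC3b-/- F1, F3 and M. Eno1 fell from 1327 ± 208.9 CPM in WT to 435.5 ± 100.6 in LC3b-/- and was called lower (log2 fold change -1.66, SE 0.20, edgeR adjusted p = 0.0363). Eno1b took 61.9%, 63.5% and 61.5% of the counts of both genes in LC3b-/-, and at most 0.315% in WT. A further copy, the transcribed processed pseudogene Gm4735, was also on, at 1.18 to 4.16 CPM in WT and 20.1, 87.3 and 48.7 CPM in LC3b-/-. Eno1b shared 74.7% of its 100-base windows with another gene, and Gm4735 shared 83.9%. The sum of Eno1b and its 3 long copies was 1332 ± 207.6 CPM in WT and 1211 ± 321.7 in LC3b-/-, with overlap.

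**Figure D3:**
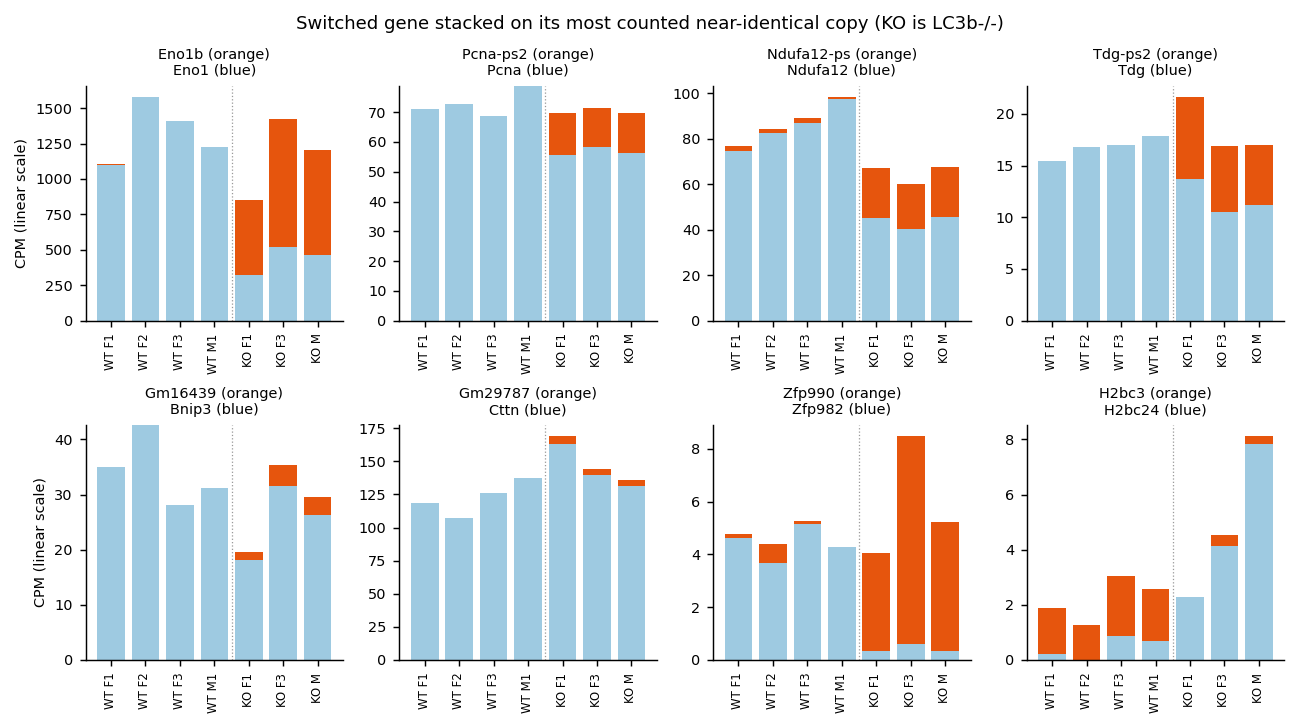
CPM of a switched gene (orange) stacked on its most counted near-identical copy (blue) in each of the 7 libraries, on linear axes that start at 0; the dotted line separates WT from LC3b-/- (KO). For Pcna-ps2 the stacked bars averaged 72.8 CPM in WT and 70.3 CPM in LC3b-/-. Zfp990 and Zfp982, aligned over 161 bases, were chosen on opposite sides of the rule, so the exchange of the 2 colours in their panel follows from the choice.

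In all, 20 of the 65 genes had a long copy, defined as another gene aligned at 95% identity or more over at least 50% of a transcript. Either strand counted, and genes overlapping at the same place were not left out. Such were A930015D03Rik for H2-T24 and Entpd4 for Gm16867, on the opposite strand, and Gm28042 for Jmjd7, on the same strand. These were 13 of the 48 on genes and 7 of the 17 off genes. After the counts of each gene and its long copies were summed, 36 on genes and 11 off genes still met the rule. The sums that did so despite a long copy were those of Catspere1 and Gm42047. The other 18 genes with a long copy no longer met it. Among these were H2-T24 and Jmjd7, whose only long copy was the overlapping gene, so their sums do not show a duplicated gene elsewhere. A sum in which copies hold most of the counts stays below the ratio when the gene alone changes. Failing the rule after summing therefore does not show that a gene did not switch. On the other hand, 24 of the 47 on genes with a transcript to search and 3 of the 17 off genes shared no 100-base window with any other gene. Copies of the other expressed genes were not searched for, so no share over all genes stands beside these counts.

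Zinc finger genes of chromosome 4 were chosen on both sides of the rule. Zfp982 (chr4:147545583-147601280, plus strand), of the KRAB zinc finger class of repressors, was off, at 4.62, 3.67, 5.16 and 4.27 CPM in WT and 0.337, 0.618 and 0.325 CPM in LC3b-/-. Its relative Zfp990 (chr4:145237287-145269397, plus strand) was on, at 0 to 0.735 CPM in WT and 3.71, 7.86 and 4.9 CPM in LC3b-/-. Zfp990 shared 3.69% of its 100-base windows with other genes, and the alignment with Zfp982 covered 161 bases of a short Zfp990 transcript. Zfp990 took at most 16.7% of the counts of the pair in WT and 91.7% to 93.8% in LC3b-/-. The rule fixed the direction of this exchange, as it chose both genes. With its 3 long copies, Zfp990 summed to 4.9 ± 0.423 CPM in WT and 6.3 ± 2.45 in LC3b-/-, which overlapped. Znf41-ps, 0.282 Mb from Zfp990, was off, at 2.57 to 4.6 CPM in WT and 0.112 to 0.856 CPM in LC3b-/-, and all of its 100-base windows were found in other genes, Gm13236 at the same place and strand among them.

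The histone H2B genes H2bc3 and H2bc11, both on chromosome 13, were off. Of the 7 other tested symbols beginning with H2bc, 3 were lower and 1 higher in LC3b-/- without overlap, and 3 overlapped. Beside this, 22.1% of all tested genes did not overlap in either direction. None of the 9 tested H2bc symbols was called. H2bc3 had 1.64, 1.27, 2.16 and 1.91 CPM in WT and 0, 0.393 and 0.266 CPM in LC3b-/-, while its copy H2bc24 was at 0.444 ± 0.4 CPM in WT and 4.75 ± 2.84 in LC3b-/-. The genotypes did not overlap for H2bc24, which was not called (log2 fold change 3.38, SE 0.96, edgeR adjusted p = 0.111). H2bc11 had 2.24 to 4.33 CPM in WT and 0 to 0.477 CPM in LC3b-/-, and summed with its 9 long copies it was part of 241.6 ± 40.3 CPM in WT and 129.7 ± 10.1 in LC3b-/-.

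The sperm channel subunit gene Catspere1 kept its pattern when its copy was added. It had no count in WT and 1.09, 1.91 and 2.33 CPM in LC3b-/- F1, F3 and M, at least 14.5-fold higher. Its copy Catspere2, at 1.58, 1.14, 1.78 and 1.91 CPM in WT and 4.76, 9.71 and 8.94 CPM in LC3b-/-, was called higher (log2 fold change 2.22, SE 0.30, edgeR adjusted p = 0.048). Both genes lie on chromosome 1 and together reached 9.58 ± 3.24 CPM in LC3b-/- against 1.6 ± 0.336 in WT.

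Several protein-coding on genes had no long copy and similar levels in the 3 LC3b-/- mice. Hal encodes histidine ammonia-lyase, the first enzyme of histidine breakdown, and is expressed in liver and epidermis. It had 2 counts in WT F3, none in the other WT libraries, and 8.8, 10.5 and 9.98 CPM in LC3b-/- F1, F3 and M. Its highest LC3b-/- library was 1.19 times the lowest. Hal belongs to the epithelial marker list and was the only gene of the list that was called, and the part of epithelial RNA in its level was not tested. Mylk2 encodes the myosin light chain kinase of skeletal muscle, and had 0.718, 0.327, 0.456 and 0.412 CPM in WT and 9.21, 7.44 and 8.06 CPM in LC3b-/-. No other gene of the 10 skeletal muscle markers was called, and their summed level overlapped, at 16.2 to 47.9 CPM in WT and 29.6 to 56.9 CPM in LC3b-/-.

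Igfbp2, a secreted binding protein of insulin-like growth factors, was the most counted protein-coding on gene without a long copy. It had 75.7, 61.4, 84.6 and 115.2 CPM in WT and 759.1, 643.9 and 512.7 CPM in LC3b-/- F1, F3 and M, a mean 7.58-fold higher. Wdfy1, an endosomal adaptor of Toll-like receptor signalling, was even within both genotypes, at 12.4 ± 0.751 CPM in WT and 48.5 ± 8.41 in LC3b-/-. Bpifb5, of a family related to lipid-binding defence proteins, was at 0.33 ± 0.0927 and 5.2 ± 1.45 CPM. Crhr1, the receptor of corticotropin-releasing hormone, had 0.653 CPM in WT F2, at most 0.038 CPM in the other WT libraries, and 2.04 to 2.85 CPM in LC3b-/-.

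Nonclassical major histocompatibility genes were on as a neighbouring pair on chromosome 17. H2-T13 (chr17:36391007-36395115, minus strand) had at most 3 counts in any WT library and 1.69, 2.22 and 4.19 CPM in LC3b-/- F1, F3 and M. H2-T24 (chr17:36314363-36331485, minus strand) was at 1.42 ± 0.325 CPM in WT and 6.8 ± 1.37 in LC3b-/-. Both were highest in LC3b-/- M. These were 2 of 28 tested symbols beginning with H2-, and H2-T24 was the only one of the 28 called higher, with none called lower. H2-T24 overlaps A930015D03Rik on the opposite strand, which was at 2.17 ± 0.652 and 6.02 ± 2.52 CPM.

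A further group of on genes varied widely among the LC3b-/- mice. The highest LC3b-/- library was at least 5 times the lowest for 12 of the 48 on genes (25%), against 3.05% of the 13631 rows with at least 1 CPM in every LC3b-/- library. Of these 12 genes, 11 were protein coding, none had a long copy and none was called by edgeR. LC3b-/- M was the lowest LC3b-/- library for all 12, against 31.6% of the 13631 rows. F1 was above F3 and F3 above M for 10 of the 12. The same order was seen in the summed epithelial markers, at 33284, 10505 and 4817 CPM, and in 16% of all rows with at least 1 CPM in every LC3b-/- library. In WT, F3 was the lowest library for 11 of the 12 genes, against 17.1% of the same rows, and it was also the lowest in summed epithelial markers, at 284.4 CPM. None of these shares was computed over only the rows with an equally wide spread. LC3b-/- M was also the only male of its genotype, and its name bore a group number that F1 and F3 did not bear. For this library, sex and group number cannot be told apart. The part of epithelial RNA in these values was not tested.

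Among these 12, 3 encoded serine proteases or a protease inhibitor. Prss27, a membrane-anchored serine protease of stratified epithelia, had 0.718, 0.816, 0.0759 and 0.636 CPM in WT and 79.4, 97.5 and 2.66 CPM in LC3b-/- F1, F3 and M. Tmprss4, a transmembrane serine protease, had 64.5, 54.8 and 5.34 CPM in LC3b-/- and at most 1.35 CPM in WT. Spink5, the protease inhibitor LEKTI of stratified epithelium, had 26, 4.32 and 4.31 CPM in LC3b-/- and 1.05 CPM in WT M1, with at most 1 count in the other WT libraries. Nccrp1 had 175.1, 102.4 and 6.02 CPM in LC3b-/- and 0.038 to 0.939 CPM in WT, and showed a 29.1-fold range among LC3b-/- mice.

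Il36g, which encodes the epithelial cytokine IL-36 gamma, had 29.8, 20 and 1.86 CPM in LC3b-/- and 0.0759 to 0.345 CPM in WT. Pglyrp4, a peptidoglycan recognition protein, had 8.73, 17.5 and 1.45 CPM in LC3b-/- and at most 0.337 CPM in WT. The transcription factor gene Grhl3, a regulator of epidermal barrier formation, had 47.4, 31.9 and 7.82 CPM in LC3b-/- and 1.21, 1.22, 0.038 and 1.72 CPM in WT. Cbln1, an organizer of synapses in the cerebellum, was in this group by its spread, with 27.2, 5.48 and 3.72 CPM. The remaining members were Cwh43, Serinc2, Ephx3 and the pseudogene Gm7897.

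**Figure D4:**
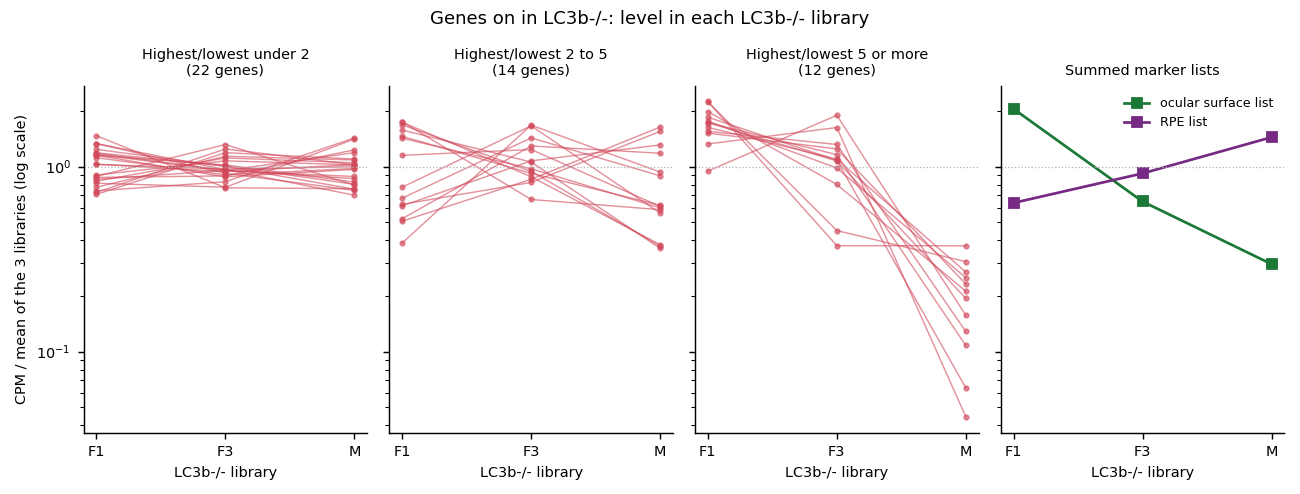
Level of the 48 on genes in LC3b-/- F1, F3 and M, each divided by the gene's mean over the 3 libraries, on a log scale and split by the ratio of highest to lowest library; the right panel gives the summed markers of ocular surface epithelium and of RPE in the same way. In the group with a ratio of 5 or more (12 genes) LC3b-/- M is the lowest library for every gene, and in the group under 2 (22 genes) it is the lowest for 9.

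The 22 on genes with a ratio under 2 among LC3b-/- mice (45.8%, against 80.8% of all rows with at least 1 CPM in every LC3b-/- library) held 7 pseudogenes, 9 genes with a long copy and 12 of the 14 called genes. The 14 genes with a ratio of 2 to 5 (29.2%, against 16.1%) held 2 pseudogenes and 2 called genes. Among the latter 14 were the mitotic genes Aurkb, at 0.212 ± 0.107 CPM in WT and 2.02 ± 0.838 in LC3b-/-, and Aspm, at 0.326 ± 0.0889 and 2.18 ± 0.741 CPM. Ccl17, a chemokine that attracts T cells, had 10.3, 5.78 and 2.27 CPM in LC3b-/- and 0.0408 to 0.402 CPM in WT. Duoxa1, a maturation factor of the dual oxidases, had 19.9, 10.1 and 4.34 CPM in LC3b-/- and 0.494 to 1.15 CPM in WT. Its neighbour Duoxa2, which overlaps it on the opposite strand, was at 0.057 ± 0.0889 and 0.571 ± 0.236 CPM.

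Other on genes of these 2 groups were low in every WT library. Gm10110, a transcribed processed pseudogene of the poly(A)-binding protein gene Pabpc4, had 0 to 0.572 CPM in WT and 7.6, 6.15 and 4.63 CPM in LC3b-/-, took 9.35% to 11.4% of the counts it shared with Pabpc4 in LC3b-/-, and shared 73.2% of its 100-base windows with other genes. Atp1a4, the sodium pump subunit of sperm, was at 0.114 ± 0.113 CPM in WT and 2.94 ± 1.71 in LC3b-/-. Tgm5, an epidermal transglutaminase, was at 0.426 ± 0.34 and 7.11 ± 4.35 CPM, and was also lowest in WT F3 and in LC3b-/- M, at 0.038 and 2.57 CPM. Meltf, Mst1, Stra6l, Cgref1, Madcam1 and the unmatched ENSMUSG00000114724 had LC3b-/- means of 2.53, 2.5, 3.06, 1.6, 1.21 and 2.03 CPM and WT means of 0.151, 0.27, 0.455, 0.253, 0.201 and 0.125 CPM. The oocyte gene Ooep was at 1.26 ± 0.236 and 7.41 ± 3.16 CPM.

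Genes off in LC3b-/- were next compared among the WT mice. The ratio of highest to lowest WT library was 1.09 to 4.71 with a median of 1.71 over the 17 genes, and was under 2 for 14 of them, while the median over the 12988 rows with at least 1 CPM in every WT library was 1.41. None of the 17 was at 0 in all LC3b-/- libraries, or at 3 counts or fewer in each. The most counted of them in WT were Tpbgl, Ptprt and Gm16867.

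Ptprt (chr2:161363910-162503067, minus strand), a receptor tyrosine phosphatase of neurons, had 73.3, 67.3, 102.3 and 134.8 CPM in WT and 4.64, 7.86 and 10.2 CPM in LC3b-/- F1, F3 and M. It shared no 100-base window with another gene. Tpbgl, a membrane protein with leucine-rich repeats, had 77.3, 82.7, 121.8 and 127.6 CPM in WT and 8.5, 15.8 and 23.5 CPM in LC3b-/-. The antisense transcript Gm10605 at the same place was at 9.37 ± 1.51 and 2.54 ± 1.02 CPM (log2 fold change -1.92, SE 0.31, edgeR adjusted p = 0.0656). In both Ptprt and Tpbgl, the order of the LC3b-/- libraries, F1 below F3 below M, was that of the summed RPE markers, whose part in these values was not tested. Of the other off genes, Adam7, Gm3055, Gm47171, Ffar2 and Znf41-ps had this order and the rest did not. The share of all rows with this order was not computed.

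Gm16867 (chr14:69600722-69740969, minus strand) had the highest ratio of nearest libraries among the off genes, with 20.7, 24.3, 12.4 and 23.6 CPM in WT and 0.0749, 0.112 and 0 CPM in LC3b-/-. It overlaps the gene Entpd4 on the opposite strand, which was not called, at 85.3 ± 4.63 and 52.9 ± 8.2 CPM (log2 fold change -0.73, SE 0.11, edgeR adjusted p = 0.058). Gm16867 shared 71.8% of its 100-base windows with other genes, and summed with 4 long copies it was part of 135.5 ± 6.59 CPM in WT and 82.5 ± 12.2 in LC3b-/-. Adam7 (chr14:68734785-68771190, minus strand), a membrane protein of the metalloprotease family known from the epididymis, lies 0.83 Mb away and was off as well, at 11.1, 9.8, 13.8 and 14.6 CPM in WT and 0.487, 0.814 and 1.15 CPM in LC3b-/-.

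Jmjd7, a lysyl hydroxylase gene, was at 3.63 ± 0.148 CPM in WT and 0.801 ± 0.245 in LC3b-/-. The readthrough gene Gm28042, which overlaps it on the same strand, was at 2.77 ± 0.993 and 0.29 ± 0.503 CPM, and the counting could divide reads between these genes. Gm3055, which shared 89.5% of its 100-base windows with other genes, had 5.08, 6.37, 3.72 and 4.34 CPM in WT and 0.374, 0.393 and 0.472 CPM in LC3b-/-. Its copy Zfp781b, at 3.13 ± 1.3 and 3.73 ± 1.61 CPM, overlapped between genotypes. The TEC gene Gm47171 was at 7.47 ± 3.08 and 0.488 ± 0.321 CPM. Ffar2, a receptor of short-chain fatty acids, was at 1.73 ± 0.28 and 0.268 ± 0.14 CPM, and 1700003F12Rik at 2.04 ± 0.25 and 0.349 ± 0.259 CPM.

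Switched genes lay on 18 autosomes, all but chromosome 12, and none lay on X or Y. Per 1000 expressed rows, the highest density was 12.3 on chromosome 18, with 5 genes (Eno1b and Spink5 on, and Gm10524, Dipk1c and Pkd2l2 off), followed by 8.25 on chromosome 14, 8.01 on chromosome 2 and 8 on chromosome 4. Gm10524 had 12.6, 13.5, 13.4 and 10.9 CPM in WT and 1.46, 2.25 and 1.71 CPM in LC3b-/-. Dipk1c, 2.03 Mb from it, was at 9.01 ± 2.35 and 1.36 ± 0.501 CPM, and Pkd2l2, a polycystin-like channel gene, at 1.48 ± 0.342 and 0.182 ± 0.158 CPM.

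Chromosome 8, which carries Map1lc3b, held 4 switched genes, or 5.3 per 1000 expressed rows. The long noncoding RNA Gm42047 (chr8:122559877-122567924, plus strand) lay 0.234 Mb from Map1lc3b and had 19.2, 10.7, 10.9 and 4.08 CPM in WT and 0.112, 0.112 and 0 CPM in LC3b-/-. Its sum with 4 long copies still met the rule, at 12.7 ± 6.73 CPM in WT and 0.637 ± 0.279 in LC3b-/-. Of the others, Ccl17 and Cbln1 lay 26.8 and 34.1 Mb away. Within 1 Mb of Map1lc3b, 9 of 25 other tested genes (36%) did not overlap between genotypes and within 10 Mb 38 of 153 (24.8%), beside 22.1% of all tested genes, and edgeR called none of the 153.

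Besides H2-T13 and H2-T24, 4 pairs of switched genes lay within 1 Mb of each other. Adam7 and Gm16867 were both off, and of 31 other tested genes in and within 1 Mb of that interval 11 (35.5%) did not overlap between genotypes, beside 22.1% of all tested genes. Counted in the same way, 14 of 41 (34.1%) did not overlap around Spr-ps1 and Nat8f6, 14 of 65 (21.5%) around H2-T24 and H2-T13, 5 of 32 (15.6%) around Bpifb5 and 1700003F12Rik and 2 of 8 (25%) around Zfp990 and Znf41-ps. Among the 31 was Tnfrsf10b, a death receptor gene, which was called higher at 14.7 ± 1.79 CPM in WT and 40.2 ± 6.04 in LC3b-/- (log2 fold change 1.41, SE 0.14, edgeR adjusted p = 0.0111). The pseudogene Spr-ps1 and the acetyltransferase gene Nat8f6, 0.652 Mb apart on chromosome 6, were both on. Spr-ps1 had at most 0.172 CPM in WT and 2.25, 3.31 and 3.16 CPM in LC3b-/-, and Nat8f6 was at 0.256 ± 0.18 and 3.69 ± 1.39 CPM. Of the 8 other tested symbols beginning with Nat8, 2 were higher and 3 lower in LC3b-/- without overlap, 3 overlapped and none was called. Nat8f3, the most counted long copy of Nat8f6, was among those that overlapped, at 12.7 ± 3.21 and 17.5 ± 0.956 CPM. Those without overlap included Nat8f7 at 1.22 ± 0.23 and 4.5 ± 2.22 CPM and Nat8f5, which overlaps Nat8f6 on the same strand, at 2.5 ± 0.816 and 0.417 ± 0.244 CPM, neither of them called (edgeR adjusted p = 0.0906 for each). In the other pairs, Bpifb5 with 1700003F12Rik and Zfp990 with Znf41-ps, 1 gene was on and its neighbour off.

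Strain origin of the switched genes was not analysed here. Genes known to carry deletions in C57BL/6J are given as a description of the background. Nnt, the mitochondrial transhydrogenase gene that carries a deletion in C57BL/6J, had 6.09, 17.9, 11.8 and 18.1 CPM in WT and 14.8, 38 and 26.1 CPM in LC3b-/-, which overlapped (log2 fold change 0.89, SE 0.41, edgeR adjusted p = 0.229). Gabra2, a GABA receptor subunit gene with an intronic deletion in C57BL/6J, had 0.112 to 0.98 CPM in WT and 0.711, 3.73 and 0.148 CPM in LC3b-/-, and overlapped too (log2 fold change 1.24, SE 1.00, edgeR adjusted p = 0.471).

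The size of the group depended on the rule and on single libraries. Without LC3b-/- M, 367 genes would have been on and 25 off, and without WT M1, WT F1 or LC3b-/- F1 97, 92 or 73 genes would have been on. Leaving out a library can only keep or add genes under the rule, so these counts could not fall. Genes just inside the ratio on the on side were Cwh43 and Cgref1 (3.05), Ooep (3.06) and Ephx3 (3.08), and those just outside were the epithelial mucin gene Muc4 (2.99), Nek2 and Ovol1 (2.97) and Gm42031 (2.95). On the off side Znf41-ps (3.004), 1700003F12Rik (3.12), H2bc3 (3.22) and Tpbgl (3.29) were just inside, and Cep83os (2.84), Zbtb47 (2.77), 4930481A15Rik (2.73) and H1f3 (2.47) just outside. For the minimum level, Madcam1 was just inside at 1.011 CPM in its lowest LC3b-/- library, and the pseudogenes Tgif2-ps2 and Rps12-ps9 were just outside at 0.927 and 0.861 CPM with no count in WT.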

How the data were processed

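RNA from RPE of 7 mice was sequenced by the study as 100 base single reads from a stranded mRNA kit. The authors assigned reads with salmon 1.9.0 to GENCODE vM26 transcripts of GRCm39, summed them to genes with tximeta 1.16.1 and deposited rounded estimated counts (expected counts) per gene, without scaling. Groups came from the genotype labels. Genes were chosen on CPM (see the rule in the results), and members, lists and tests were chosen with earlier results of these data known. Symbols, biotypes and positions came from GENCODE vM39 on GRCm39, which matched 51721 of 52740 rows. The test of LC3b-/- against WT used edgeR 4.0.16 (filterByExpr, TMM, quasi-likelihood, Benjamini-Hochberg over 16990 genes) on R 4.3.3, and alternatives used DESeq2 1.42.0 and limma 3.58.1. The edgeR step was tested on simulated data. Copies were found with BLAST 2.17.0 among all transcripts at 95% identity over at least 100 bases. As such short hits also arise from interspersed repeats, copies were counted when the alignment covered at least 50% of a member transcript, a limit set after the data were seen. SD is over libraries, each from 1 mouse, and the tests set the difference between genotypes against the spread between mice within a genotype. All WT mice bore the same group number in their names, and LC3b-/- F1 and F3 shared another. Spread between such groups was therefore not measured in WT.

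Named genes were, in each direction, the 10 protein-coding and 8 other members with the highest ratio of nearest libraries, members on chromosome 8, members within 1 Mb of another, members on a marker list, Nnt and Gabra2, the 4 genes on each side of a threshold, and the most counted copy of a member. Other genes were named after their values were seen. No deposited sample column was left unused. Salmon divides reads between near-identical transcripts by likelihood against the C57BL/6J sequence, and counts of such genes are uncertain. The values of 2 switched genes are not reported here, and both stay in all counts.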

Additional observations from a re-analysis of the deposited data

Results flagged for a closer look

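Of 118 values tested for a WT library that stood apart from the other 3 (57 switched genes, 48 other named genes and 13 marker lists), 5 did so, and chance flags about 1 in 20. The value that stood apart was 1.05 CPM for Spink5 (WT M1), 0.653 CPM for Crhr1 (WT F2) and 0.038 CPM for Tmprss4 (WT F3, the lowest). Among the other genes it was 0.258 CPM for Serpinb2 and 4.71 CPM for Zfp992.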

How the results depend on the processing

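The count of genes on in LC3b-/- was 46 with TMM-scaled library sizes and 43 with DESeq2 size factors, against 48, and of genes off it was 18 with each, against 17. A minimum ratio of 2 gave 132 on and 32 off, and a ratio of 5 gave 23 and 7. Females only gave 448 on and 29 off. Summing each gene with every near-identical copy of 100 bases or more left 28 on and 7 off, and summing with copies over at least 50% of a transcript, an alternative chosen after seeing the data, left 36 and 11. Copies that hold most of a sum keep it below the ratio unless they change as well. With each library left out in turn, 52 to 367 genes were on and 18 to 25 off. Under the rule, fewer libraries can only keep or add genes, so these counts and those of females only could not fall.

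Of the members called by edgeR (14 on, 10 off), counts moved to 47 on and 17 off with DESeq2, 22 on with limma voom and quality weights, 24 on without a filter on low counts and 7 on with at least 10 counts in every library, a filter that removed most on genes from testing (9 of 48 were left). Leaving out each library in turn gave 6 to 33 on and 3 to 13 off: 33 on without LC3b-/- M, 8 and 6 on without LC3b-/- F1 and F3 and 8 without WT F3, and 3 off without LC3b-/- F1 or F3, 5 without WT F3 and 6 without WT F2. Over all genes, edgeR called 21 higher and 19 lower, and DESeq2 1205 and 617. With the replicate block (the number in the mouse names) 15 on and 6 off were called, 8 and 5 of them shared with the unblocked test. In their deviations from the genotype means, mice of the same number correlated at 0.146 (both F1), 0.243 (both F3) and 0.534 (WT M1 with LC3b-/- F1), the highest value of all. Mice of different number reached 0.463 (WT F2 with LC3b-/- F3), and WT F3 correlated best with LC3b-/- M, at 0.283. Only 2 numbers occurred in both genotypes, LC3b-/- F1 stood in 2 of the same-number combinations, and the labels give the number no shared litter or day, so it was not treated as a pairing. No log2 fold change of a called named gene changed sign. Of the fold changes under all alternatives, 1232 stayed on their side of the threshold, 83 lost a call and 134 gained one. The causes of these changes were not tested. Genes at a few counts per library, and those that share reads with copies, limit what depth can show.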
